A study of Mus musculus with 18 samples.

Results

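The nuclear-encoded genes of the mitochondrial respiratory chain and ATP synthase were followed through RNA sequencing of mpkCCD cells. Members were chosen by symbol (the Nduf, Sdh, Uqcr, Cyc1, Cox and Atp5 names of complexes I to V) and by a count of at least 10 in at least 9 of the 18 libraries, without use of any difference between groups. Of 24111 genes in the count table, 84 matched the names and 77 met the count rule: 36 of complex I, 4 of complex II, 9 of complex III, 11 of complex IV and 17 of complex V. The 7 that matched without meeting the count rule were Cox6a2, Cox6b2, Cox7b2, Cox8b, Cox8c, Ndufa4l2 and Ndufs5. Complexes were assigned by symbol, so Ndufa4, now regarded as a subunit of complex IV, is counted with complex I, and the related proteins encoded by Atp5s and Atp5sl are counted with complex V.

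The mpkCCD line comes from mouse kidney collecting duct, was immortalised, and behaves like principal cells; the labels name 1 line, mpkCCD11. In 9 libraries the cells had received dDAVP, the V2 receptor agonist desmopressin, at 0.1 nM for 24 h, and in the 9 control libraries they were left without it. Per the labels' protocols both groups grew to confluence on permeable supports, in a medium with insulin, dexamethasone, triiodothyronine and epidermal growth factor, and were then without serum for 24 h before the treatment period. The labels number the libraries 1 to 9 in each group without saying whether these are separate cultures, so p-values measure the spread between these samples, which may be technical.

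As background, complexes I to IV pass electrons from NADH and succinate to oxygen and, except for complex II, pump protons across the inner mitochondrial membrane, and complex V uses the proton gradient to make ATP. Most subunits are encoded in the nucleus and imported, and a small core is encoded by mitochondrial DNA, whose transcripts were not analysed here. Collecting duct cells use this ATP for the sodium pump and vesicle traffic, and promoters of these genes are known for sites of NRF1 and GABP, while CREB, a transcription factor activated through the V2 receptor and cAMP, binds the cAMP response element.

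Promoter sequences are shown for members chosen by motif: those with a cAMP response element and those with both an NRF1 and a GABP motif. Windows that overlap the annotated gene are not shown, which leaves out Ndufa10, but they are kept in the counts of members and of all genes. Of the 77 members, 66 had an entry in the RefSeq promoter table for GRCm38.p6, and the 250 bases upstream of each start were searched on both strands. The full cAMP response element TGACGTCA, which reads the same on both strands, lay in 4 of the 66 (6.06%): Ndufa10, Ndufa11, Ndufb2 and Uqcrfs1. It lay in 478 of the 27025 genes with an entry (1.77%), where a gene counts if any of its windows holds the motif. The NRF1 motif, GCGCA and GCGC separated by 1 base of any kind, lay in 12 members (18.2%) and in 4.23% of all these genes. The GABP motif CCGGAAGT lay in 3 members (4.55%) and in 3.23% of all these genes. The motifs do not overlap in the windows shown. In each sequence, written 5′ to 3′ on the strand of the gene, capitals mark a motif; in Atp5h the first is NRF1 and the second is GABP on the opposite strand, and in Ndufa11 the first is the cAMP response element and the second is NRF1. The cAMP response element begins 158 bases upstream of the start in Ndufa11, 14 in Ndufb2 and 29 in Uqcrfs1. The windows are chr17:56717512-56717761 (plus strand) for Ndufa11, chr6:39592315-39592564 (plus strand) for Ndufb2, chr13:30545317-30545566 (minus strand) for Uqcrfs1 and chr11:115419920-115420169 (minus strand) for Atp5h.
Ndufa11: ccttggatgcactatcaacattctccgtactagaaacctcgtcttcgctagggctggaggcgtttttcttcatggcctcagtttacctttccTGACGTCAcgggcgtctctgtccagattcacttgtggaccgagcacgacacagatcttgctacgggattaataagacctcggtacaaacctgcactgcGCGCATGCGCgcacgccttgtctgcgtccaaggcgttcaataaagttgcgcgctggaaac
Ndufb2: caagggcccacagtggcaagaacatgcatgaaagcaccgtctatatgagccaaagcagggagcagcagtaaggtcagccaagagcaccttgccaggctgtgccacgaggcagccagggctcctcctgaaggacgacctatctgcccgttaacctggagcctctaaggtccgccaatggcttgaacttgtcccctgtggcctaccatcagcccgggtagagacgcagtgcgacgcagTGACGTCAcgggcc
Uqcrfs1: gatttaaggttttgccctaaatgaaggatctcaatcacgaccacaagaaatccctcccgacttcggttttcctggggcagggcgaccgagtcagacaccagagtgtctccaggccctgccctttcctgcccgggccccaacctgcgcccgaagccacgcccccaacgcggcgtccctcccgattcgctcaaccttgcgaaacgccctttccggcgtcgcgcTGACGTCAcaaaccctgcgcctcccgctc
Atp5h: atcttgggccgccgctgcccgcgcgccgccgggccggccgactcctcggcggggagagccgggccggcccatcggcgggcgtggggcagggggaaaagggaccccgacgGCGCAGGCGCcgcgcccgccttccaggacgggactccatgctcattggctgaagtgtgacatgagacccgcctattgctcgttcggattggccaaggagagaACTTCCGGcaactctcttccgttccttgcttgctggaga
A motif match is a description of these letters and says nothing of binding.

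Counted reads per library ranged from 22.2 to 105.9 M, and levels below are normalised CPM (the CPM of a gene computed with the TMM-scaled library total) unless another scale is given. The libraries fall into 3 sets of replicate numbers (1 to 3, 4 to 6 and 7 to 9); the labels do not say what separates them, so culture, library protocol and sequencing run cannot be told apart. Library dDAVP 6 stood apart, with 0.861% of its counts in ribosomal protein genes against 5.19 to 10.2% in the others of its set, and with 10282 genes detected. As a check of cell type, 7 of 8 principal cell markers met the count rule. Their sum is carried with dDAVP, except in dDAVP 6, by Aqp2, the water channel gene that V2 receptor activation is known to induce, at 162 to 2764 normalised CPM with dDAVP and 10.9 to 252 normalised CPM in control. In dDAVP 6 Aqp2 held 162 of a sum of 790 normalised CPM. Its level in control 9 (252) lay above those in dDAVP 6, dDAVP 8 and dDAVP 9 (162, 175 and 193). Without Aqp2 the sum was 123 to 628 normalised CPM with dDAVP and 135 to 422 normalised CPM in control, and Hsd11b2, the enzyme that inactivates glucocorticoids, had a log2 fold change of -0.75 (SE 0.33) with the set term. Of 6 intercalated cell, 6 proximal tubule, 4 thick limb and distal tubule, and 6 stromal, endothelial and leukocyte markers, only Aqp6 and Lrp2 met it. Libraries dDAVP 2 and dDAVP 3 also stood apart, because all 4 thick limb and distal tubule markers were highest there. Their sum was 50.07 and 40.9 normalised CPM in dDAVP 2 and dDAVP 3, against at most 1.32 in each of the other 16 libraries. Umod, the uromodulin gene of the thick limb, had 566 and 483 counts in these libraries, against 1 in dDAVP 1 and 0 in each of control 1 to 3, and Slc12a3, the cotransporter of the distal convoluted tubule, had 176 and 158, against 0 in dDAVP 1 and 1, 1 and 0 in control 1 to 3. Results of libraries 1 to 3 are therefore also given without dDAVP 2 and dDAVP 3, a choice made after seeing the data that leaves dDAVP 1 alone, assumed to vary as the controls do; the part of these markers in the results was not tested. The markers Pecam1, Kdr and Slc5a2 had 0 counts in all 18 libraries. These are bulk samples, in which fewer cells of a type and less RNA per cell cannot be told apart.

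Per length of transcript, on the authors' FPKM scale, the members of complexes I to V with the highest median in libraries 1 to 3 were Ndufb9, Sdhc, Uqcrh, Cox8a and Atp5o. In complex III the order depends on the statistic: Uqcrh had a median of 617 FPKM (218 to 731) and Uqcr11 one of 564 FPKM (479 to 785), while by the mean Uqcr11 led with 618 FPKM against 549.8 FPKM, so they did not differ beyond their spread. Ndufb9, an accessory subunit of the membrane arm of complex I, had a median of 2047 FPKM over these 6 libraries (1533 to 2453). Cox8a, the ubiquitous isoform of a small complex IV subunit, had a median of 2334 FPKM and Atp5o, the stalk subunit OSCP of ATP synthase, 2135 FPKM. Their ranges, 1872 to 3002 FPKM and 1705 to 2210 FPKM, overlapped, so these 2 neighbours in the order did not differ beyond their spread. Sdhc, a membrane anchor of complex II, had a median of 214 FPKM and Sdhd, the other anchor, 4.15 FPKM. In libraries 7 to 9 other members led: Ndufs7, a core iron-sulfur subunit of complex I, with a median of 1113 FPKM, Uqcrq, a small subunit of complex III, with 1457 FPKM, and Atp5d, the delta subunit of the rotor of ATP synthase, with 2234 FPKM. Cox8a led complex IV there too, with 3624 FPKM.

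**Figure D1:**
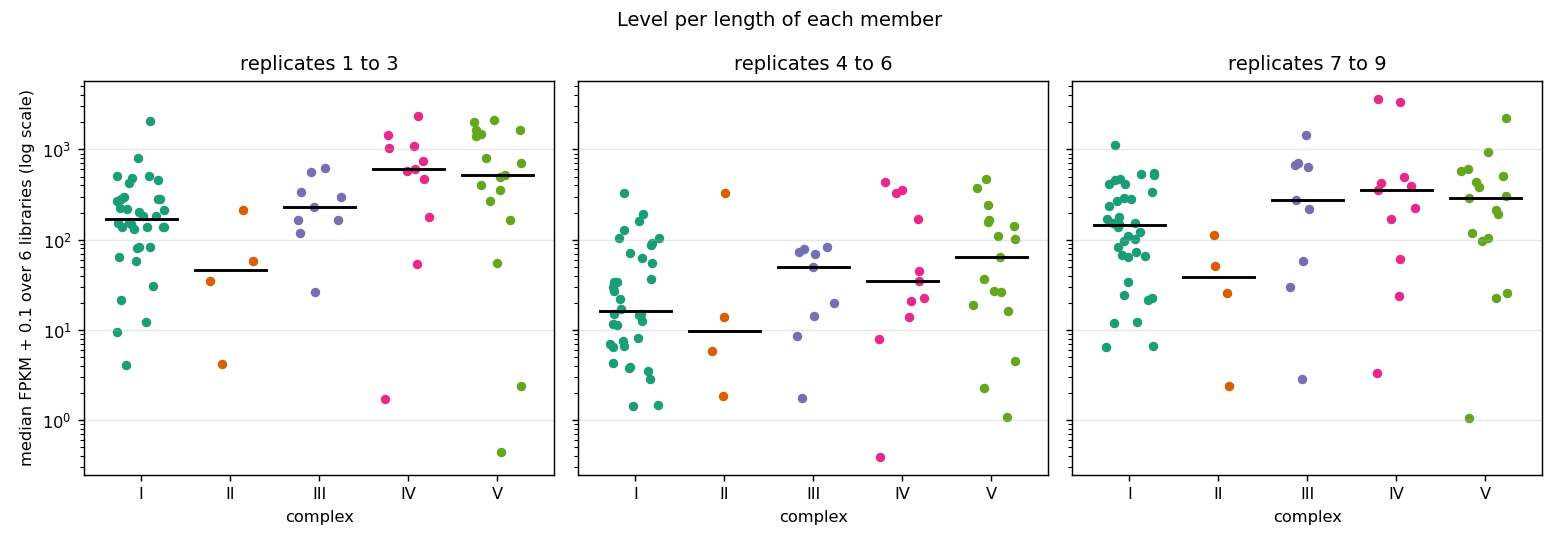
Median FPKM (plus 0.1, log scale) of each member over the 6 libraries of a set of replicate numbers, by complex; each point is a gene and the line is the median of the genes. In libraries 1 to 3 Cox8a (2334 FPKM) and Atp5o (2135 FPKM) are near the top, and members span more than 3 orders of magnitude within a set.

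Among genes with tissue isoforms, the ubiquitous isoform held nearly all of the FPKM. Cox7a1, the heart and muscle isoform, made up at most 6.05% of the sum of Cox7a1 and Cox7a2 in any library. Cox6a2 made up at most 0.0654% of its pair with Cox6a1, Cox6b2 at most 0.397% of its pair with Cox6b1, Cox4i2 at most 0.0407% of its pair with Cox4i1, and Ndufa4l2 at most 7.30% of its pair with Ndufa4. Cox4i1 is outside the symbol pattern and is named here beside its isoform. Cox7b2, Cox8b and Cox8c had 0 counts in all 18 libraries, where counting error alone allows up to 3 counts each. Cox6a2, the muscle isoform, was counted in libraries control 7 to 9 alone, with 42, 4 and 1 counts. Ndufa4l2, known as a hypoxia-induced relative of Ndufa4, had 19 counts in dDAVP 9, and 173 and 66 counts in control 8 and control 9. The 3 genes Atp5g1, Atp5g2 and Atp5g3 encode the same mature c subunit of the ATP synthase ring with different import signals. The share of Atp5g3 in their FPKM was 70.6 to 78.5%, 71.4 to 83.8% and 14.9 to 68.6% for libraries 1 to 3, 4 to 6 and 7 to 9. Of the 50-base words in Atp5g2 transcripts, 38.35% also occur in other genes, so its reads may be shared.

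The largest contrast in the data lay between the sets of replicate numbers and not between the groups. All members together took 0.116 to 0.760% of counts (libraries 4 to 6) and 2.09 to 2.95% (libraries 7 to 9), against 2.77 to 3.71% (libraries 1 to 3). In libraries 4 to 6 the highest of 6 libraries was below the lowest of libraries 1 to 3 for 64 of 77 members, both on CPM (16.4% of all 10121 genes tested) and on normalised CPM (18% of them). The opposite held for 0 members on both scales, and for 12.6% of all genes tested on CPM and 18.2% on normalised CPM. The median difference in log2(CPM + 1) between libraries 4 to 6 and 1 to 3 was -2.97 over members and 0.20 over all genes tested. The most negative differences belonged to Atp5h (-6.00), a subunit of the stator stalk of ATP synthase, Cox6b1 (-5.38), a subunit of complex IV on the side of cytochrome c, and Uqcrh (-5.37), the hinge protein of complex III. For libraries 7 to 9 against 1 to 3 the scaling decides the count. On CPM 17 members lay lower without overlap and 9 higher (4.81% and 39.9% of all genes), and on normalised CPM 43 lay lower and 0 higher (17.7% and 23.7% of all genes). The median difference in log2(CPM + 1) was -0.43 over members and 1.19 over all genes.

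Other measures moved with the sets. The share of counts in ribosomal protein genes was 0.861 to 10.2% (libraries 4 to 6) and 10.2 to 16.1% (libraries 7 to 9), against 20.7 to 28.8% (libraries 1 to 3). The share in genes under 1000 bases was 1.56 to 16.5%, 16.05 to 29.2% and 24.8 to 32.7% for the same sets. Members are short, with a median length of 692 bases against 2751 for all genes tested. In the length class of 500 to 1000 bases the median log2 difference of libraries 4 to 6 from 1 to 3 was -3.29 for 37 members and -1.45 for 690 genes of that length. The part of these measures in the result was not tested.

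**Figure D2:**
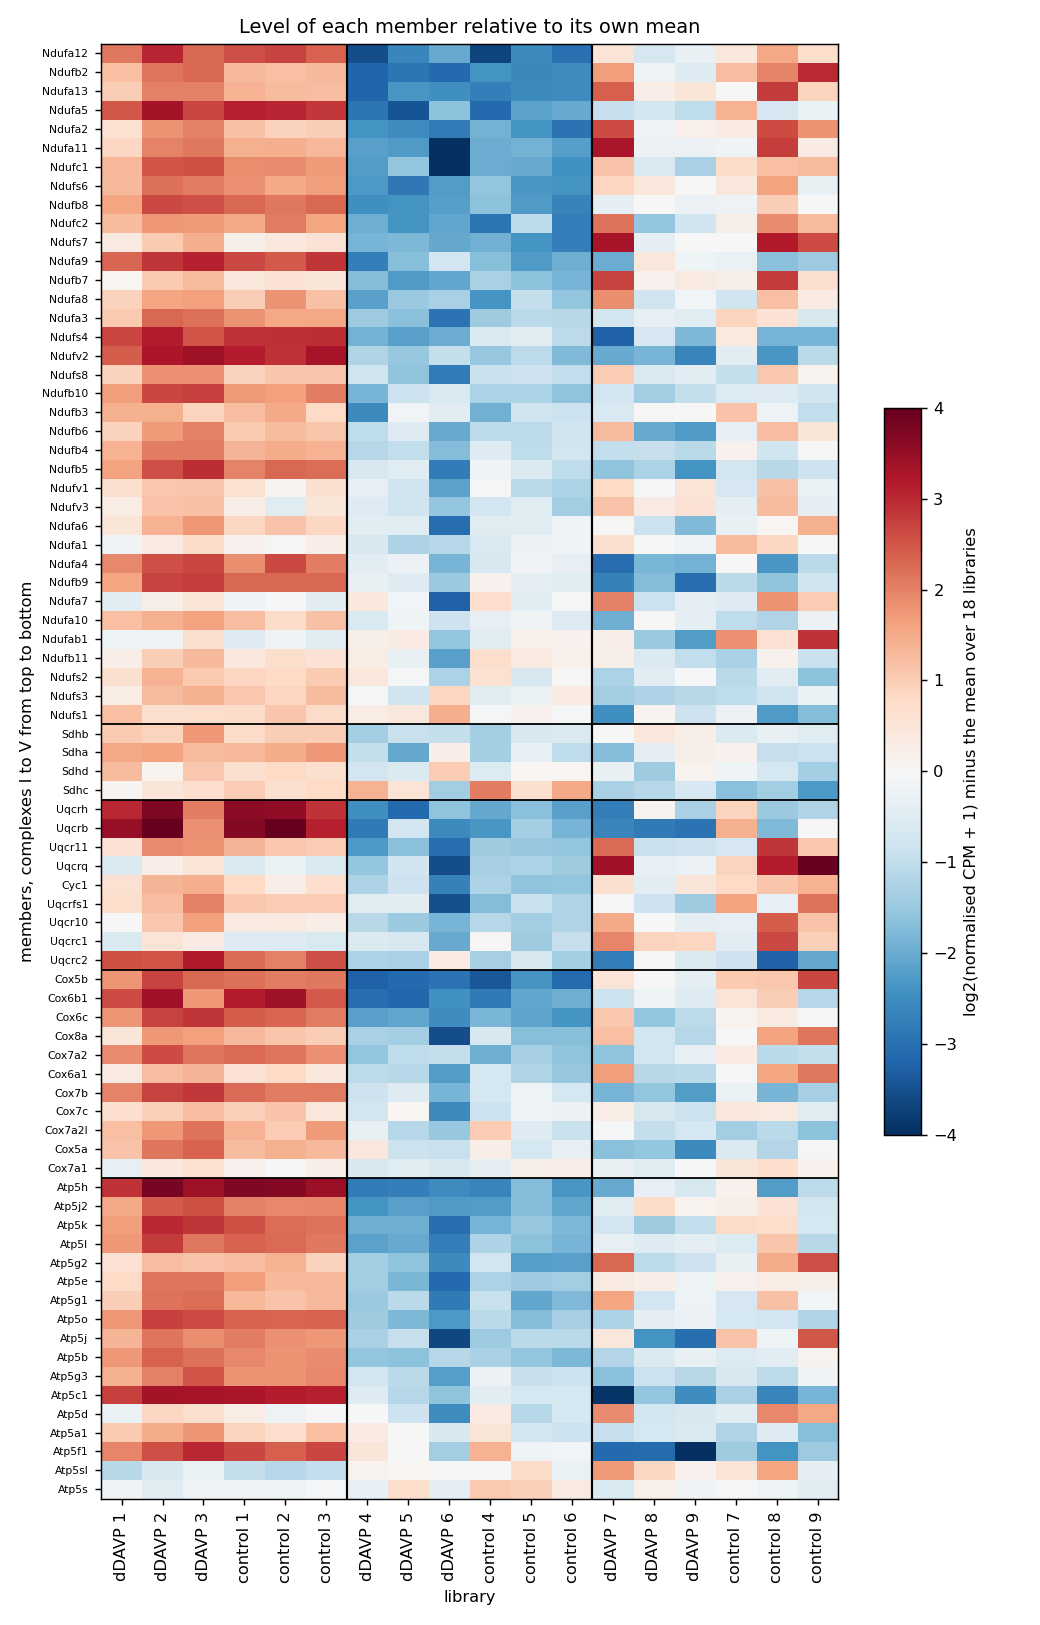
Level of each of the 77 members (rows, complexes I to V from top to bottom) in each of the 18 libraries (columns), as log2(normalised CPM + 1) minus the member's mean over the libraries, with red above and blue below that mean. Libraries 1 to 3 of both groups are mostly red and libraries 4 to 6 mostly blue, and libraries 7 to 9 differ from one another within each group.

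The makeup of the respiratory chain counts differed between sets too. Complex V held a median of 43.1% of member counts in libraries 4 to 6 and 31.6% in libraries 7 to 9, against 50.4% in libraries 1 to 3, and the 3 ranges did not overlap. Complex III held 15.3% in libraries 7 to 9 (11.2 to 19.0%), against 6.45% in libraries 1 to 3 (5.84 to 7.04%). Complex II held 6.80% in libraries 4 to 6 (4.34 to 10.2%), against 1.49% in libraries 1 to 3 (1.01 to 1.57%). Of its 4 members Sdhc differed least between these sets, with a difference in mean log2(CPM + 1) of 0.058 (libraries 4 to 6 minus 1 to 3). The differences of Sdhd, Sdhb and Sdha were -0.91, -2.11 and -2.48. Sdhc ranged widely in libraries 4 to 6, at 80.1 to 874 normalised CPM, against 227 to 426 normalised CPM in libraries 1 to 3.

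Whether transcripts differ after V2 receptor activation is the question of the dDAVP libraries set against control. No member passed the test in any of the 5 comparisons. Over all 18 libraries without covariates, edgeR's quasi-likelihood test with Benjamini-Hochberg adjustment called 0 of 77 members and 0 of 10121 genes (0%), and 1 member had an unadjusted p under 0.05 (2.15% of all genes did). Of the members, 38 had a positive and 39 a negative log2 fold change, with a median of -0.01 against 0.05 over all genes. The median of members lay between -0.31 (without dDAVP 3) and 0.18 (without control 2) when single libraries were left out, and was -0.79 without dDAVP 2 and dDAVP 3, with 73 of 77 negative and 0 called. Because the fit has no set term, leaving out libraries also changes how the sets are balanced between the groups. Levels of members differ between the sets, and the part of that imbalance in these medians was not tested. In simulated data this fit recovered 1% of 4-fold changes. With the set of replicate numbers as a term, edgeR called 0 members and 8 of 10121 genes (0.079%; 1 gene and 0 members with the replicate number as a block), and 3 members had an unadjusted p under 0.05 (6.03% of all genes did). There 23 members had a positive and 54 a negative log2 fold change, with a median of -0.20 against 0.02 over all genes. That median lay between -0.31 (without dDAVP 7) and -0.10 (without control 8) with single libraries left out, including -0.12 without dDAVP 9 and -0.13 without control 4. It was -0.38 without dDAVP 2 and dDAVP 3, -0.38 without libraries 1 to 3, and -0.03 without libraries 7 to 9, where 35 members were positive and 42 negative. With sample quality weights in limma voom the median was 0.17 with 58 members positive, and without the set term 0.46 with 70 positive, so the direction depends on the weight given to each library.

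Within the sets the balance of signs differed. In libraries 1 to 3 edgeR called 0 of 77 members and 41 of 8991 genes (0.456%; 101 genes and 0 members with the replicate number as a block); 54 members had a positive log2 fold change, with a median of 0.20 against -0.01 over all genes. That median was 0.42 without dDAVP 1, 0.09 without dDAVP 2 and 0.07 without dDAVP 3. Without dDAVP 2 and dDAVP 3 it was -0.25, with 60 of 77 members negative, so the positive balance is not seen without these libraries with tubule markers. That fit leaves dDAVP 1 alone, with a TMM factor of 0.984 against 0.647 to 0.812 in the other libraries 1 to 3. Members took 2.95% of counts in dDAVP 1, against 2.77 to 3.12% in control 1 to 3. A low dDAVP 1 cannot be told apart from high levels in dDAVP 2 and dDAVP 3. Without dDAVP 1, where these are the dDAVP libraries left, edgeR called 774 of 9311 genes (8.31%) and 7 of 77 members (9.09%), a share near that of all genes, each with higher levels in dDAVP: Atp5g1, Cox5a, Ndufa2, Ndufb10, Ndufb2, Uqcr10 and Uqcrc1. With sample quality weights limma voom called 3 members (3.90%) where it called 7.05% of all genes, and in libraries 7 to 9 it called 2 members (2.60%) where it called 1.94%. Library dDAVP 1 held the lowest level of the 6 libraries for 48 of 77 members, and dDAVP 3 the highest for 45, and dDAVP 1 lay below both dDAVP 2 and dDAVP 3 for 66. In libraries 4 to 6 edgeR called 0 of 76 members tested and 0 of 10387 genes (0%, with 479 at an unadjusted p under 0.05, and 29 called by DESeq2), and Cox7a1 missed the filter. There 61 members had a negative log2 fold change, with a median of -0.34 against -0.03 over all genes, and -0.28 without dDAVP 6. Library dDAVP 6 held the lowest level for 43 of 77 members. In libraries 7 to 9 edgeR called 0 of 77 members and 0 of 11367 genes (0%, with 590 at an unadjusted p under 0.05, and 94 called by DESeq2). There 57 members had a negative log2 fold change, with a median of -0.55 against -0.03 over all genes, and -0.93 without dDAVP 7. Summed normalised CPM of members was 20111.5, 7456 and 7608 in dDAVP 7 to 9, against 10119, 22058 and 22637 in control 7 to 9. The high sums were thus those of dDAVP 7, control 8 and control 9, and leaving out dDAVP 7 removes the only dDAVP library among them. With library totals in place of TMM the medians in libraries 7 to 9 were -0.07 over members and 0.54 over all genes, so the median of members was below that of all genes under both scalings while 37 of 77 then had a positive value. The median standard error of a member's log2 fold change was 0.26, 0.58 and 0.83 in the 3 sets. The difference in treatment effect between sets was tested by an interaction term in edgeR, which called 0 of 10121 genes (0%, with 671 at an unadjusted p under 0.05) and 0 members, and 6 members had an unadjusted p under 0.05 (6.63% of all genes did).

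**Figure D3:**
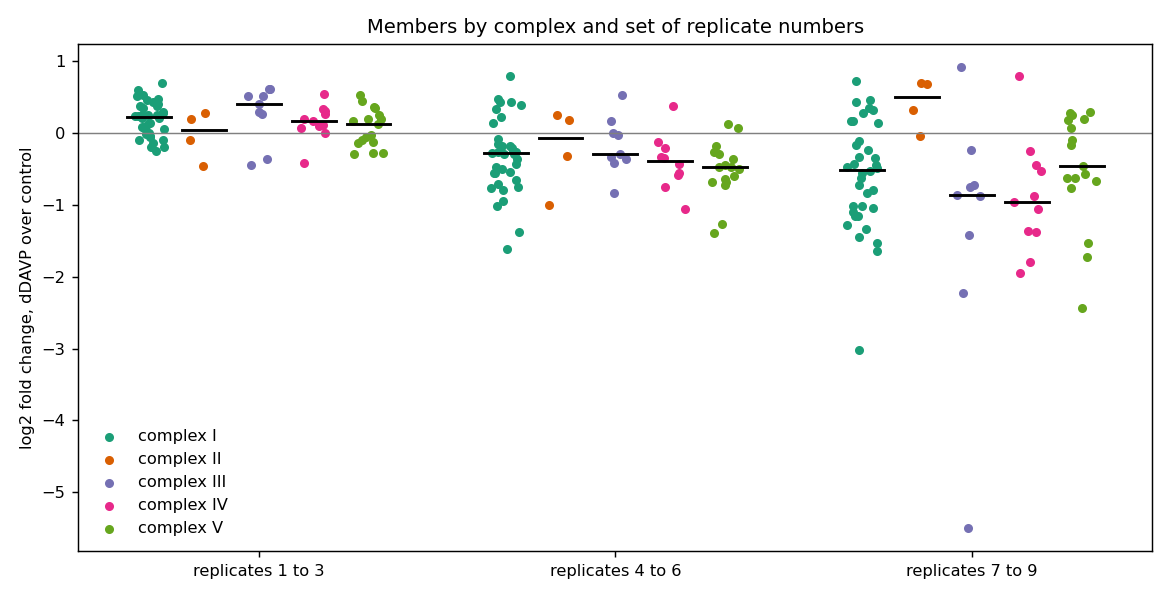
Log2 fold change of each member, dDAVP over control, by set of replicate numbers and complex (edgeR fits within sets); each point is a gene and the line is the median of a complex. Medians over members are 0.20, -0.34 and -0.55 in libraries 1 to 3, 4 to 6 and 7 to 9, and no point passed the test; the first of these medians is -0.25 without dDAVP 2 and dDAVP 3.

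Members whose groups did not overlap were counted on normalised CPM, with the share of all genes tested beside each count. In libraries 1 to 3 there were 0 members higher and 0 lower with dDAVP, where 7.11% and 6.93% of all genes were. In libraries 4 to 6 there was 1 higher, Ndufs1 (5.28% of all genes), and 8 lower (4.44% of all genes): Atp5k, Atp5l, Cox7a1, Ndufa1, Ndufa3, Ndufb2, Ndufs4 and Uqcr11. In libraries 7 to 9 there were 3 higher, Cox7a2l, Sdhb and Sdhc (4.58% of all genes), and 13 lower (4.05% of all genes). The 13 were Ndufa5, Ndufab1, Ndufb4, Ndufb5, Ndufb9 and Ndufs3 of complex I, Cyc1 and Uqcrb of complex III, Cox5a, Cox5b and Cox7a1 of complex IV, and Atp5f1 and Atp5k of complex V. Cox7a1 and Atp5k were in both lists of lower members. The TMM factors were 1.31, 3.16 and 2.76 in dDAVP 7 to 9, and 2.32, 1.34 and 1.16 in control 7 to 9. On CPM the groups of libraries 7 to 9 overlapped for Sdhb, Sdhc, Cyc1, Cox5a, Cox5b, Cox7a1, Atp5f1 and Atp5k. They did not overlap on CPM for Cox7a2l, Ndufab1 and Uqcrb. The genes of these lists, apart from those the naming rule gives, were chosen after their values were seen.

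The shares of counts by complex below depend on a few libraries. The log2 ratio of mean shares, dDAVP over control, in libraries 1 to 3 was 0.21, -0.18, 0.31, 0.26 and 0.094 for complexes I to V, and -0.034, -0.011, 0.19, 0.00090 and -0.034 without dDAVP 2 and dDAVP 3. The ratio in libraries 4 to 6 was -0.59, -1.04, -0.29, -0.67 and -0.53, and -0.16, -0.55, 0.18, -0.21 and -0.087 without dDAVP 6. For complex III there it was also positive without control 5, at 0.038. The complex II sums of libraries 4 to 6 are, apart from dDAVP 6, mostly those of Sdhc, as given below. The ratio of complex I in libraries 7 to 9 was 0.13, and -0.026 without dDAVP 7 and -0.030 without control 9, and that of complex V was 0.027, and -0.067 without dDAVP 8. Within pairs of the same replicate number, summed CPM was higher with dDAVP in 3 of 3 pairs of libraries 1 to 3 for complexes I, III, IV and V, lower in 3 of 3 pairs of libraries 4 to 6 for complexes II, IV and V, and lower in 3 of 3 pairs of libraries 7 to 9 for complex III. On normalised CPM each of these held in 2 of 3 pairs, apart from complexes II and IV in libraries 4 to 6 with 3 of 3. There complex I was also lower in 3 of 3 pairs of libraries 4 to 6 and complex II in 3 of 3 of libraries 1 to 3. With 3 pairs the smallest two-sided p of an exact permutation test is 0.25.

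Complex I, which oxidises NADH, took 0.833 ± 0.126% of counts with dDAVP and 0.721 ± 0.0752% in control in libraries 1 to 3 (SD, n = 3 each, as for each share below). It took 0.116 ± 0.0729% with dDAVP and 0.175 ± 0.0456% in control in libraries 4 to 6, and 0.777 ± 0.146% and 0.708 ± 0.260% in libraries 7 to 9. All these groups overlapped. The last pair lies the other way on the TMM-scaled total, where the log2 ratio of the means is -0.30 against 0.13 on the raw total. Ndufab1, the mitochondrial acyl carrier protein that is also a complex I subunit (chr7:122086815-122101848), had the lowest unadjusted p of complex I over all libraries. It had 12.6, 13.4 and 23.7 normalised CPM in dDAVP 1 to 3, against 10.1, 13.2 and 10.4 in control 1 to 3. In dDAVP 4 to 6 it had 17.6, 18.9 and 4.43, against 10.5, 17.1 and 16.7 in control 4 to 6. In dDAVP 7 to 9 it had 18.1, 4.57 and 2.34, against 55.4, 22.5 and 116 in control 7 to 9. Only the last set is free of overlap, with all dDAVP libraries below all control libraries. Its log2 fold change there was -3.02 (SE 0.94, edgeR adjusted p = 0.846), and over all libraries it was -1.23 (SE 0.57).

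Ndufs4, an accessory subunit needed for assembly of the NADH-oxidising module (chr13:114287795-114388094), had the lowest unadjusted p of complex I with the set term. It had 129.5, 183 and 117 normalised CPM in dDAVP 1 to 3, against 152, 156 and 158 in control 1 to 3. It had 4.61, 3.61 and 4.19 in dDAVP 4 to 6, against 12.9, 14.5 and 8.97 in control 4 to 6, with no overlap. It had 1.19, 11.9 and 4.90 in dDAVP 7 to 9, against 26.3, 4.69 and 4.66 in control 7 to 9, where the groups overlap. The log2 fold change with the set term was -0.88 (SE 0.40, edgeR adjusted p = 0.815). Ndufb2, an accessory subunit of the membrane arm whose promoter is shown above, had 74.2, 141 and 159 normalised CPM in dDAVP 1 to 3, against 78.4, 73.6 and 79.5 in control 1 to 3. In dDAVP 4 to 6 it had 2.62, 3.40 and 2.75, against 5.24, 4.40 and 4.74 in control 4 to 6, and the groups did not overlap on this scale. On FPKM they overlapped, at 1.85 to 7.32 with dDAVP and 6.30 to 11.8 in control. In dDAVP 7 to 9 it had 102, 28.8 and 21.7, against 75.6, 127 and 258 in control 7 to 9. The log2 fold changes of the 4 members with a cAMP response element in libraries 1 to 3 were 0.29 for Ndufa10, 0.24 for Ndufa11, 0.60 for Ndufb2 and 0.30 for Uqcrfs1. They were, in libraries 4 to 6, -0.26, -0.74, -0.76 and 0.17 in the same order, and in libraries 7 to 9 they were 0.17, 0.36, -1.64 and -2.23, and none was called in any set. Ndufs1, the large iron-sulfur subunit of the NADH-oxidising module, had 25.9, 28.9 and 57.8 normalised CPM in dDAVP 4 to 6, against 19.7, 23.2 and 20.0 in control 4 to 6. On this scale dDAVP lay above control without overlap, and the highest value is that of dDAVP 6, whose TMM factor was 0.306. On FPKM the groups overlapped, at 6.08 to 10.15 with dDAVP and 3.85 to 10.16 in control.

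Complex II, which oxidises succinate and is also an enzyme of the citric acid cycle, took 0.0399 ± 0.00578% of counts with dDAVP and 0.0453 ± 0.00333% in control in libraries 1 to 3. It took 0.0259 ± 0.0183% and 0.0531 ± 0.00678% in libraries 4 to 6, and 0.0474 ± 0.0255% and 0.0212 ± 0.0118% in libraries 7 to 9, again dDAVP before control. On summed CPM the groups overlapped in the first and last of these sets, and in libraries 4 to 6 every dDAVP library lay below every control library. On normalised CPM the sums overlapped there too, at 595, 343 and 165 in dDAVP 4 to 6 and 908, 399.7 and 659.6 in control 4 to 6. Of these sums Sdhc alone held 555, 310.0 and 80.1 with dDAVP and 874, 334 and 607 in control. Of the 4 members, 2 had a positive and 2 a negative log2 fold change there, with a median of -0.07. It was the complex whose median log2 fold change in libraries 7 to 9 was positive, at 0.51, while the other 4 medians were negative. Sdhb, the iron-sulfur subunit (chr4:140961271-140979198), had 39.0, 53.4 and 45.6 normalised CPM in dDAVP 7 to 9, against 25.6, 31.1 and 27.1 in control 7 to 9, without overlap. Sdhc (chr1:171129157-171150640) had 85.6, 95.03 and 134 in dDAVP 7 to 9, against 65.5, 80.8 and 42.6 in control 7 to 9, also without overlap. On CPM the groups overlapped for both genes. Neither passed the test, with log2 fold changes of 0.69 (SE 0.64) and 0.70 (SE 0.69). In libraries 1 to 3 Sdhc lay on the other side, with 227, 299.7 and 339 in dDAVP and 426, 332 and 369.7 in control, and a log2 fold change of -0.46 (SE 0.22, edgeR adjusted p = 0.478). It had, in libraries 4 to 6, 555, 310.0 and 80.1 in dDAVP, against 874, 334 and 607 in control, with overlap and a log2 fold change of -0.996 (SE 0.70, edgeR adjusted p = 0.999). Sdha, the flavoprotein subunit, had log2 fold changes of -0.10, 0.18 and -0.04 in the 3 sets and Sdhd 0.20, 0.26 and 0.33, each smaller than its standard error.

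Complex III, which passes electrons from ubiquinol to cytochrome c, had the widest range of fold changes of the 5 complexes in libraries 7 to 9, from -5.50 to 0.92 on the log2 scale. It took 0.226 ± 0.0243% of counts with dDAVP and 0.182 ± 0.00663% in control in libraries 1 to 3, and 0.295 ± 0.0669% and 0.462 ± 0.0502% in libraries 7 to 9. On summed CPM the 3 dDAVP libraries lay above the 3 control libraries in the first of these sets and below them in the last. On normalised CPM the groups overlapped in both. In libraries 4 to 6 it took 0.0308 ± 0.0234% with dDAVP and 0.0376 ± 0.0146% in control. Uqcrb, a small subunit near the ubiquinone site (chr13:66900576-66905350), had 97.0, 143 and 29.5 normalised CPM in dDAVP 1 to 3, against 110, 168 and 74.0 in control 1 to 3. It had 0.226, 4.07 and 0.479 in dDAVP 4 to 6, against 0.729, 2.39 and 1.36 in control 4 to 6. It had 0.399, 0.219 and 0.110 in dDAVP 7 to 9, against 22.1, 1.56 and 7.75 in control 7 to 9. The last set is again the only one without overlap, and its log2 fold change of -5.50 (SE 1.2003) was the most negative of any member, with an unadjusted edgeR p of 0.000472 and an adjusted p of 0.595. DESeq2 called Uqcrb in libraries 7 to 9, where it called 0.827% of all genes, as did edgeR without a filter (0.208% of all genes) and edgeR without dDAVP 7 (0.829% of all genes). Of the 50-base words of its transcripts 43.4% occur in other genes, so its counts are uncertain. Its interaction of set and treatment had an unadjusted p of 0.000841 and an edgeR adjusted p of 0.405.

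**Figure D4:**
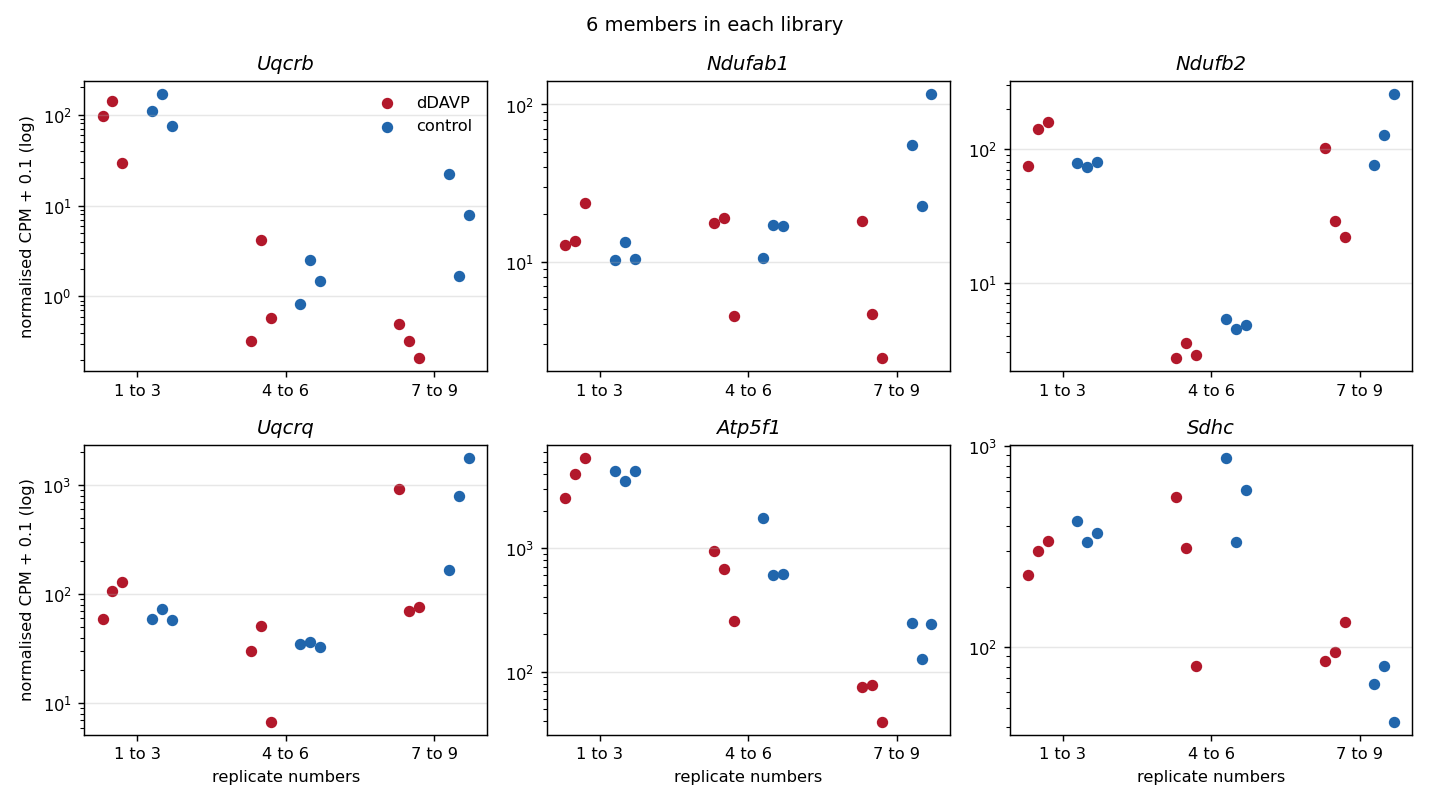
Normalised CPM (plus 0.1, log scale) of 6 members in each of the 18 libraries, by set of replicate numbers, with dDAVP libraries in red to the left of control libraries in blue. In libraries 7 to 9 Uqcrb, Ndufab1 and Atp5f1 of all dDAVP libraries lie below all control libraries and Sdhc lies above, and Uqcrq is highest in dDAVP 7, control 8 and control 9.

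Uqcrfs1, the Rieske iron-sulfur protein (chr13:30540312-30545316), had 225, 134 and 88.2 normalised CPM in dDAVP 7 to 9, against 725, 191 and 1089 in control 7 to 9, a log2 fold change of -2.23 (SE 0.93, edgeR adjusted p = 0.938), and the groups overlapped. Cyc1, cytochrome c1, had 438, 727 and 784 in dDAVP 1 to 3, against 488, 338 and 457 in control 1 to 3. Cyc1 had 442, 212 and 398 in dDAVP 7 to 9, against 497, 609.8 and 752 in control 7 to 9, where it did not overlap on normalised CPM but did on CPM. Its log2 fold changes were 0.52 (SE 0.24), -0.00 (SE 0.52) and -0.88 (SE 0.80) in the 3 sets. Uqcrq had 924, 70.2 and 75.5 normalised CPM in dDAVP 7 to 9, against 166, 800.2 and 1770.3 in control 7 to 9. Uqcr11, another small subunit, had 688, 74.9 and 78.5 in dDAVP 7 to 9, against 89.1, 1029 and 299 in control 7 to 9. For both genes the library dDAVP 7 lay with control 8 and control 9 at the high end, and dDAVP 8, dDAVP 9 and control 7 lay at the low end. Uqcrc2, a core protein of the complex, was the member of complex III with a positive log2 fold change in libraries 7 to 9, at 0.92 (SE 0.87).

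Complex IV, cytochrome c oxidase, took 0.598 ± 0.0898% of counts with dDAVP and 0.499 ± 0.0301% in control in libraries 1 to 3, 0.0718 ± 0.0463% and 0.114 ± 0.0202% in libraries 4 to 6, and 0.439 ± 0.137% and 0.662 ± 0.145% in libraries 7 to 9, with overlap in each set. These shares leave out the complex IV gene Cox4i1, outside the symbol pattern. It had 4032 to 5299 FPKM in libraries 1 to 3, against a median of 2334 FPKM for Cox8a. Of the complex IV members, 10 of 11 had a positive log2 fold change in libraries 1 to 3 (median 0.16), 9 of 10 tested a negative one in libraries 4 to 6 (median -0.39) and 10 of 11 a negative one in libraries 7 to 9 (median -0.96). Cox5b, a structural subunit on the matrix side, had 135, 94.4 and 72.6 normalised CPM in dDAVP 7 to 9, against 198, 202 and 613 in control 7 to 9. Its log2 fold change was -1.80 (SE 0.83, edgeR adjusted p = 0.938). Cox5a, its partner subunit, had 103, 112 and 56.1 in dDAVP 7 to 9, against 221, 146 and 319 in control 7 to 9. For both the groups did not overlap on this scale, and on CPM they did. In libraries 1 to 3 Cox5a had 736, 1446 and 1713 with dDAVP, against 788, 877 and 821 in control, so that dDAVP 1 was the lowest and the other dDAVP libraries the highest.

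Cox7a1 had the lowest unadjusted p of complex IV with the set term (log2 fold change -1.60, SE 0.74, edgeR adjusted p = 0.815), at levels near the detection floor. It had 0, 0.108 and 0 normalised CPM in dDAVP 4 to 6, against 0.199, 0.847 and 0.859 in control 4 to 6. In dDAVP 7 to 9 it had 0.268, 0.110 and 0.559, against 1.19, 1.50 and 0.747 in control 7 to 9. Cox7a2l, a factor that joins complexes III and IV into supercomplexes, had 357, 189 and 229 in dDAVP 7 to 9, against 139.8, 174 and 119.7 in control 7 to 9, without overlap and in the direction opposite to Cox5a and Cox5b. Its log2 fold change was 0.80 (SE 0.74) there and -1.06 (SE 0.63) in libraries 4 to 6. Cox8a and Cox6a1, the leading isoforms of their families, were highest in dDAVP 7, control 8 and control 9 among libraries 7 to 9, as Uqcrq was. Cox8a had 1715, 452 and 337 in dDAVP 7 to 9, against 741, 2264 and 3268 in control 7 to 9. Cox6a1 had 1829, 265 and 274 in dDAVP 7 to 9, against 541, 1737 and 2483 in control 7 to 9. Cox4i1, outside the symbol pattern, had log2 fold changes of -0.03, -0.55 and -0.03 in the 3 sets.

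**Figure D5:**
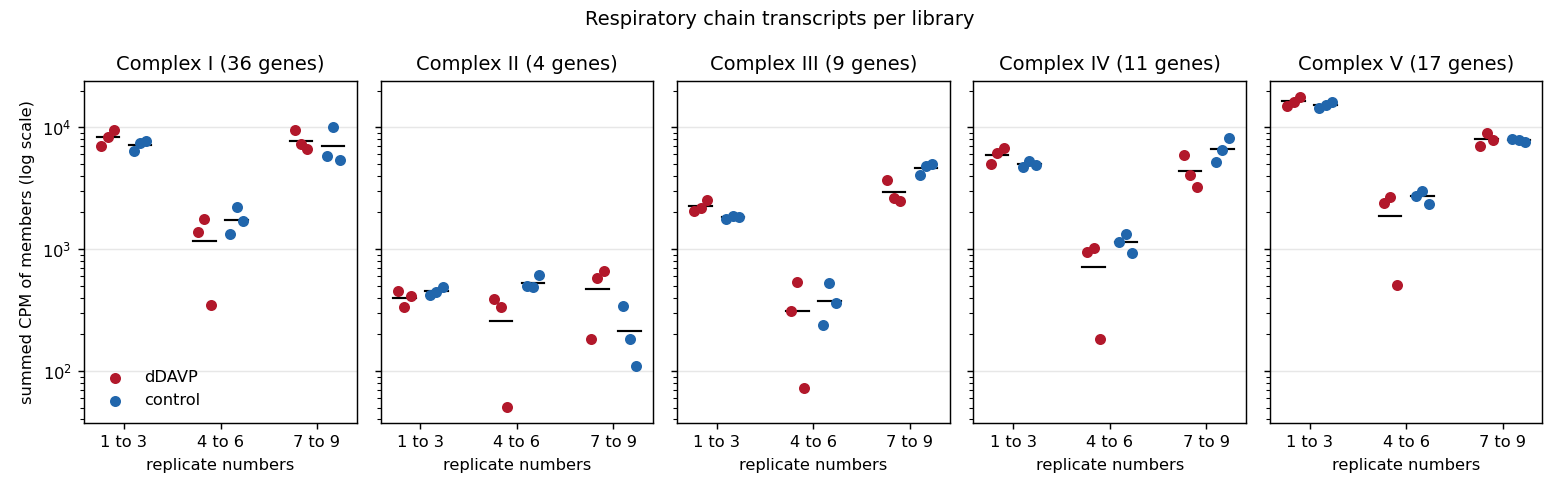
Summed CPM of the members of each complex (log scale, raw library totals) in each library, by set of replicate numbers, with dDAVP in red to the left of control in blue; each point is a library and the line is the mean of 3. Complex III lies higher with dDAVP in libraries 1 to 3 and lower in libraries 7 to 9, and dDAVP 6 is the lowest library of every complex.

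Complex V, ATP synthase, took 1.63 ± 0.149% of counts with dDAVP and 1.53 ± 0.0867% in control in libraries 1 to 3, 0.187 ± 0.119% and 0.271 ± 0.0335% in libraries 4 to 6, and 0.795 ± 0.0993% and 0.780 ± 0.0247% in libraries 7 to 9. The groups overlapped in each set. The last pair too lies the other way on the TMM-scaled total, with a log2 ratio of -0.52 against 0.03 on the raw total. Atp5f1, the b subunit of the stator stalk (chr3:105942698-105959263), had the lowest unadjusted p of complex V with the set term. It had 75.6, 77.3 and 39.3 normalised CPM in dDAVP 7 to 9, against 248, 127 and 242 in control 7 to 9, without overlap on this scale but with overlap on CPM. In libraries 1 to 3 it had 2554, 3984 and 5356 normalised CPM with dDAVP, against 4217, 3471 and 4199 in control. Its log2 fold change with the set term was -0.78 (SE 0.36, edgeR adjusted p = 0.815), and 37.55% of its 50-base words occur in other genes. Atp5k, the e subunit of the membrane part, had 14.6, 8.72 and 12.4 in dDAVP 7 to 9, against 43.5, 41.6 and 15.2 in control 7 to 9. The c-subunit genes had log2 fold changes of 0.20 (Atp5g1), -0.76 (Atp5g2) and -0.66 (Atp5g3) in libraries 7 to 9, each smaller than its standard error. Atp5d had 2939, 475 and 507 in dDAVP 7 to 9, against 582, 3012 and 2307 in control 7 to 9, with the same 3 libraries highest as for Uqcrq. Atp5s, which had the lowest unadjusted p of complex V over all libraries, lay at 0.247 to 2.08 normalised CPM with dDAVP and 0.366 to 2.92 normalised CPM in control.

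Other genes of the pathway were taken from lists of assembly factors, regulators, citric acid cycle enzymes and carriers, and none of their members passed the test in any of the 5 comparisons. In libraries 7 to 9, 13 of 17 complex IV assembly factors tested lay on the negative side (median log2 fold change -0.55), among them Cox20 at -3.86 (SE 1.10, edgeR adjusted p = 0.803) and Coa6 at -2.59 (SE 1.11). All 4 ATP synthase assembly factors and inhibitors tested were negative there (median -1.38), including Atpaf1 at -2.95 (SE 0.94) and Tmem70 at -2.03 (SE 0.91). The other sets did not share this: 9 of 15 complex IV assembly factors tested were positive in libraries 1 to 3 (median 0.13) and 6 of 15 in libraries 4 to 6 (median -0.34), and of the ATP synthase factors 3 of 4 were positive in libraries 1 to 3 (median 0.42) and 2 of 4 in libraries 4 to 6 (median -0.13). Among libraries 7 to 9 Cox20, Coa6, Atpaf1 and Tmem70 were each highest in control 9, at 64.2, 185, 90.9 and 103 normalised CPM. The next highest values were 24.2, 28.1, 25.1 and 37.5, and for Coa6 and Tmem70 the groups overlapped. Complex I assembly factors in libraries 7 to 9 had 7 of 13 positive (median 0.04), complex II assembly factors 1 of 2, and complex III assembly factors 3 of 5. All 13 citric acid cycle enzymes had a positive log2 fold change in libraries 7 to 9 (median 0.84), with 0.84 (SE 0.76) for Cs, citrate synthase. It was positive in libraries 4 to 6 for 4 of 13 (median -0.15) and in libraries 1 to 3 for 9 of 13 (median 0.096). The difference from the respiratory chain members was not tested. With the set term 11 of 13 of these enzymes were positive (median 0.28), and 54 of 77 respiratory chain members were negative. Among regulators of mitochondrial biogenesis 8 of 13 were positive with the set term (median 0.30), including the transcription factor gene Nrf1 at 0.78 (SE 0.29, edgeR adjusted p = 0.815) and the coactivator gene Pprc1 at 0.58 (SE 0.26). Of carriers and import factors 13 of 17 were negative with the set term (median -0.15), with -0.84 (SE 0.51) for Tomm70a, an import receptor. The subunits outside the symbol pattern had 4 of 4 tested negative with the set term (median -0.35), with Usmg5, a small ATP synthase subunit, at -0.85 (SE 0.40).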

How the data were processed

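Raw counts per gene symbol were deposited by the authors as whole numbers, and an FPKM table was deposited beside them. STAR 2.4.0.1, SAMtools, HTSeq and build mm10 are named per the submitters' processing notes; annotation release and strand setting are not given in the sources used here, so overlapping antisense genes are uncertain. Per the labels' protocols, 2 library methods are described without a map to libraries.

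Counts were tested with edgeR 4.0.16 (quasi-likelihood, TMM, filterByExpr, Benjamini-Hochberg adjusted p under 0.05, two-sided) over all genes, on all 18 libraries without and with the set of replicate numbers as a term, within each set, and for the interaction. DESeq2 1.42.0, limma 3.58.1 (voom, with and without sample quality weights; FPKM with a pseudocount of 1), other normalizations and filters, the replicate block, and single libraries or sets left out were alternatives; leaving out dDAVP 6 and control 6 together, or dDAVP 2 and dDAVP 3 together, was chosen after seeing the data. Scripts ran in R 4.3.3 and in Python 3.11.15 with pandas 2.3.3, numpy 2.4.6 and matplotlib 3.10.9. Members and lists were chosen with earlier results of these data known.

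Genes were named by a rule: in each complex the member with the highest mean FPKM and those with the lowest p over all libraries, without and with the set term, plus isoform families, complex II subunits, Cyc1 and Ndufa4, and in each other list up to 2 members with the lowest p with the set term. Others are described for their groups that did not overlap, their promoters or their level, and were chosen after their values were seen. Gene positions are on GRCm38 (mm10), and shared 50-base words come from GENCODE M21 transcripts.

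In the pairing check, deviations from group means of libraries with the same number correlated across genes with r of 0.40 to 0.93, above 0.1 in every pair, and a library's own number was the best match in 3 of 9. The labels do not say what the number marks. The fits were tested on simulated data: 4-fold changes were recovered for 1% of genes over all libraries, 63% with the set term, 83% in libraries 1 to 3, 1% in libraries 4 to 6 and 0% in libraries 7 to 9, and 2-fold changes for 0%, 6%, 12%, 0% and 0% in the same fits. The limit of 3 counts for a gene at 0 reflects counting error alone.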

Additional observations from a re-analysis of the deposited data

Results flagged for a closer look

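Among 58 groups of 9 libraries, 7 held a library farther from the others than Dixon's critical value allows. That value flags about 1 in 20 groups if the values come from 1 normal distribution. These groups pool 3 sets of libraries that differ, and related genes, so the count of 7 cannot show an excess. On normalised CPM these were Atp5d (2939), Atp5g2 (344) and Uqcrq (924), each highest in dDAVP 7. In control they were Atp5g2 (425), Ndufab1 (116) and Uqcrq (1770.3), each highest in control 9, and Uqcr11 (1029), highest in control 8. The summed CPM of complex III was singled out because every dDAVP library lay above every control library in libraries 1 to 3 (log2 ratio of means 0.31) and below every one in libraries 7 to 9 (log2 ratio -0.65). Without dDAVP 2 and dDAVP 3, the libraries with tubule markers, the first ratio was 0.19. The difference between these sets was not tested.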

How the results depend on the processing

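Genes called over all libraries numbered 12 with DESeq2, 1 with limma voom, 11 with sample quality weights and 2 on FPKM, and 0 to 1 with single libraries left out. With the set term they numbered 5 on library totals, 31 with DESeq2, 118 with sample quality weights, 0 without libraries 1 to 3, 0 without libraries 4 to 6, and 4 to 9 with single libraries left out. In libraries 1 to 3 they numbered 123 with DESeq2, 634 with sample quality weights, 207 without a filter, and 13 to 774 with single libraries left out. In libraries 4 to 6 they numbered 1 on library totals, 29 with DESeq2, 2 with sample quality weights, 1 without a filter and 0 to 2 with single libraries left out. They numbered, in libraries 7 to 9, 7 on library totals, 94 with DESeq2, 220 with sample quality weights, 30 without a filter and 0 to 98 with single libraries left out.

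With the replicate block, genes called numbered 1 over all libraries, the same with the set term, 101 in libraries 1 to 3, 0 in libraries 4 to 6 and 3 in libraries 7 to 9; it called 0 members in each, and the log2 fold change of Sdha with the set term became -0.019. Members called in libraries 1 to 3 numbered 3 with sample quality weights (Cox5a, Ndufb2 and Uqcrc1; 3.90% of members, against 7.05% of all genes) and 0 to 7 (at most 9.09%, against 8.31% of all genes) with single libraries left out. They numbered, in libraries 7 to 9, 1 with DESeq2 (Uqcrb), 1 without a filter, 2 with sample quality weights (Atp5j and Ndufab1) and 0 to 2 with single libraries left out. The median log2 fold change of members was 0.17 with sample quality weights (set term), and on library totals -0.62 in libraries 4 to 6 and -0.075 in libraries 7 to 9, and it lay between -0.93 and -0.43 in libraries 7 to 9 with single libraries left out.

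Without dDAVP 2 and dDAVP 3, a choice made after seeing the data, 4 genes were called with the set term and the median of members in libraries 1 to 3 was -0.25. The log2 ratio of the share of counts there was -0.034 for complex I, -0.011 for complex II, 0.19 for complex III, 0.00090 for complex IV and -0.034 for complex V.

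Log2 fold changes with the set term whose sign was the other one are as follows. With sample quality weights they were 0.27 for Atp5d, 0.038 for Atp5g3, 0.29 for Cox6a1, 0.078 for Cox8a, 0.41 for Cyc1, 0.23 for Ndufa4, 0.11 for Ndufab1, 0.00061 for Ndufb9, -0.036 for Sdha, -0.039 for Sdhd, 0.14 for Uqcr11 and 0.39 for Uqcrq. Without libraries 7 to 9 they were 0.056 for Cox6a1, -0.33 for Cox7a2l, 0.31 for Cyc1, 0.18 for Ndufab1 and 0.14 for Uqcrq. Without libraries 4 to 6 they were -0.11 for Cox7a2, -0.0089 for Sdha and 0.18 for Sdhc, and without libraries 1 to 3 -0.092 for Cox7a2l. On library totals they were 0.063 for Cyc1 and -0.073 for Sdha, and with limma voom -0.12 for Sdha. Without dDAVP 6 and control 6, a choice made after seeing the data, they were -0.0025 for Cox7a2, 0.023 for Cyc1, -0.17 for Sdha and 0.010 for Sdhc. Without dDAVP 2 and dDAVP 3 they were -0.012 for Atp5g1, -0.014 for Cox7a2 and -0.12 for Cox7a2l. With single libraries left out the ranges were -0.083 to 0.39 for Atp5g1, -0.011 to 0.23 for Cox7a2, -0.11 to 0.36 for Cox7a2l, -0.18 to 0.059 for Cyc1 and -0.17 to 0.18 for Sdha. The log2 ratio of the share of counts in libraries 7 to 9 on the TMM-scaled total was -0.30 for complex I, -1.07 for complex III, -1.02 for complex IV and -0.52 for complex V. The cause of these differences was not tested. In simulated data 4-fold changes were recovered for 1% of genes over all libraries and in libraries 4 to 6 and 0% in libraries 7 to 9, and 2-fold changes for at most 12% in any fit, so an uncalled member is not shown to be the same in both groups.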
